A study of Homo sapiens with 8 samples.

Results

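Polysome association was measured in HT-144 cells, an established human melanoma line, that had received control siRNA. The comparison took 4 of the 8 libraries of the series: 2 of polysomal RNA and 2 of total RNA, all from control siRNA. The other 4 libraries came from the same line after siRNA against DDX3X, a DEAD-box RNA helicase, again with 2 of polysomal and 2 of total RNA. All values were FPKM, that is, fragments relative to transcript length and to the mapped fragments of the library, for 65514 transcript isoforms, of which 15531 reached 1 FPKM in at least 2 of the 8 libraries and were tested. Whether the 2 libraries of a group came from separate cultures is not stated, so p-values measure only how far these libraries vary, which may be technical.

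Polysomes are mRNAs carrying several ribosomes at once. In a sucrose gradient they sediment ahead of single ribosomes and of free RNA-protein particles, so an mRNA that is translated efficiently is recovered mainly in the heavy fractions. Non-coding RNAs, RNAs kept in the nucleus and stored mRNAs are typically recovered outside these fractions and still contribute to total RNA. A polysomal value divided by a total value therefore describes how far an RNA was loaded with ribosomes relative to the average RNA of the same libraries. It is not an absolute share of molecules on polysomes, and loading cannot be told apart from recovery of the fraction.

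The deposited table identifies isoforms by UCSC-style identifiers and pairs none of them with a gene name, and 1 of the 65535 identifiers matched the reference gene tables. That isoform, uc001kfo.1 of ACTA2-AS1, an antisense non-coding RNA, stayed below the level needed for testing. The melanocyte, ribosomal protein, non-coding RNA and other gene lists, the melanoma label and the level of DDX3X were therefore not analysed here, and isoforms are described by their level, direction and spread.

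The 4 control libraries were alike in the number of isoforms detected, with 13146 and 13408 isoforms at 1 FPKM or more in polysomal RNA and 13204 and 13417 in total RNA. They differed in how much of the FPKM sum fell on a few very high isoforms. Isoforms of 1000 FPKM or more held 67.2% and 56.5% of the sum in the polysomal libraries of replicates 1 and 2, and 92.8% and 92.5% in the total RNA libraries. A single isoform made up 41.5% of the sum in polysomal replicate 1 but 4.88% in polysomal replicate 2. In total RNA it made up 54.5% and 40.3%. With DDX3X siRNA the polysomal libraries had 95.0% and 87.2% of their sum in isoforms of 1000 FPKM or more. The low share in polysomal RNA was thus seen in the control libraries and not in those of DDX3X siRNA. The isoforms below 1000 FPKM summed to 294461 and 284316 in polysomal RNA and to 245799 and 248859 in total RNA with control siRNA, without overlap between the fractions. Their part in single isoform values was not tested beyond the scalings given below.

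Most isoforms were found at a similar level in polysomal and total RNA. On the log2(FPKM + 1) scale, which understates the change of low isoforms, the polysomal minus total difference had a median of 0.12, with the middle 50% of isoforms between -0.22 and 0.47. The central 90% lay between -0.79 and 1.05. A total of 14161 isoforms (91.2%) differed by less than 2-fold in either direction, 907 (5.84%) were at least 2-fold higher and 463 (2.98%) at least 2-fold lower in polysomal RNA. The difference was above 0 for 59.8% of isoforms. The median was 0.17 between the libraries of replicate 1 and 0.06 between those of replicate 2 (SD 0.0767 between them, n = 2). Median-of-ratios scaling moved it to -0.01 and quantile normalization to 0.01, so differences are best read relative to a shift of 0.12.

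At a limma adjusted p under 0.05, 1976 isoforms were higher in polysomal RNA (12.7% of those tested) and 646 were lower (4.16%), a total of 16.9%. The replicates of the fractions did not overlap for any of these isoforms. Without any test, non-overlap alone was met by 39.8% of all tested isoforms for higher and by 23.3% for lower polysomal values. Higher isoforms were 75.4% of all calls on the deposited scale, 51.0% after median-of-ratios scaling (1535 higher, 1476 lower) and 50.3% after quantile normalization (1357 higher, 1339 lower). Of the 2622 calls, 2111 were also called after median-of-ratios scaling and 1928 after quantile normalization, and 0 changed direction in either. Both scalings centre the differences near 0, which in itself moves the split towards equal numbers, so whether more isoforms were higher than lower cannot be told from these values. The number of calls fell to 999 and 920 without control polysomal replicates 1 and 2 and to 1043 and 1344 without control total replicates 1 and 2, with higher isoforms at 74.0% to 84.5% of the calls.

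Small differences made up most of the calls. Among the higher isoforms, 418 differed by less than 1.5-fold, 975 by 1.5-fold to 2-fold, 533 by 2-fold to 4-fold and 50 by more. Among the lower isoforms these numbers were 73, 310, 212 and 51. A difference over 4-fold was thus found for 2.53% of the higher and 7.89% of the lower calls. These numbers depend on the pseudocount: at 0.1, 174 of 1916 higher and 96 of 571 lower calls were over 4-fold, and at 5, 9 of 1992 and 34 of 685 were. The plot of differences against level shows the calls on either side of a band of uncalled isoforms. Differences ran from -18.88 to 10.01. The isoforms at -18.88 and -10.53 were listed at exactly 0 in both control polysomal libraries, so the longer lower tail rests on such values. The isoform at 10.01 was likewise listed at 0 in both control total RNA libraries, with a polysomal mean of 1029 FPKM.

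**Figure D1:**
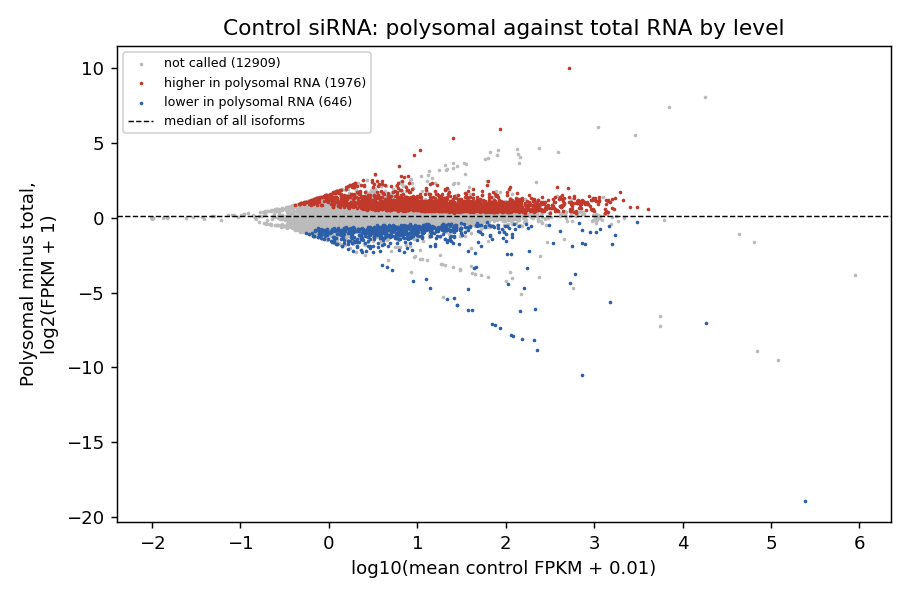
Polysomal minus total difference of log2(FPKM + 1) with control siRNA for each of 15531 tested isoforms (y axis) against log10 of the mean control FPKM + 0.01 (x axis). Red points are the 1976 isoforms called higher and blue points the 646 called lower in polysomal RNA, grey points were not called, and the dashed line is the median of 0.12. Calls lie above and below a central band of uncalled isoforms. The lowest point, listed at 0 in both control polysomal libraries, is at -18.88.

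The clearest pattern was one of level, taken as the mean over the control polysomal and total libraries. The median difference was 0.04 for 2235 isoforms with a control mean under 1 FPKM and 0.04 for 6791 isoforms of 1 to 5 FPKM. It was 0.14 for 4056 isoforms of 5 to 20 FPKM, 0.34 for 1902 of 20 to 100 FPKM and 0.49 for 481 of 100 to 1000 FPKM. Among the last, the middle 50% of isoforms lay between 0.15 and 0.89. On the deposited scale at least 3 in 4 of these abundant isoforms thus had a difference above 0. The lower quartile was close to the shift of 0.12 over all isoforms. For 66 isoforms of 1000 FPKM or more the median was 0.24 and the middle 50% lay between -0.33 and 1.09, on either side of 0. The extremes of this class were 8.07, for an isoform that was not called, and -18.88, for an isoform listed at 0 in both polysomal libraries.

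The share of calls also differed by level. The share called higher was 3.04% under 1 FPKM, 4.95% at 1 to 5 FPKM, 15.0% at 5 to 20 FPKM, 35.3% at 20 to 100 FPKM, 55.5% at 100 to 1000 FPKM and 37.9% above. The share called lower was 1.48%, 3.49%, 5.74%, 5.15%, 7.48% and 13.6% in the same classes, against 4.16% over all tested isoforms. Replicates also differed in agreement by level. The median gap between polysomal replicates on the log2 scale was 0.25 under 1 FPKM, 0.20 at 1 to 5 FPKM and 0.12 at 100 to 1000 FPKM, and 0.16 above. Between total RNA replicates it was 0.36, 0.25, 0.08 and 0.07 in these classes. The part of this precision in the share of calls was not tested, while the median difference, which depends on no threshold, rose from the class of 1 to 5 FPKM to that of 100 to 1000 FPKM. With a pseudocount of 0.1 the medians of the classes up to 1000 FPKM were 0.19, 0.07, 0.16, 0.35 and 0.50, and with a pseudocount of 5 they were 0.01, 0.02, 0.10, 0.31 and 0.49. The place of the class under 1 FPKM thus depended on the pseudocount.

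The relation with level was measured again with classes taken from the mean of the 4 DDX3X libraries, which take no part in the control difference. The median control differences were then -0.02, 0.05, 0.15, 0.34, 0.54 and 0.02 from the lowest to the highest class. Both kinds of class include polysomal values, so isoforms higher in polysomal RNA with both siRNAs lean towards the higher classes in either. The DDX3X classes therefore do not remove this lean. Classes from total RNA alone were not made, and the part of the lean in the rise was not tested. Over the 547 isoforms with a control mean of 100 FPKM or more, the median lay 0.37 above that of all isoforms. The same gap was 0.38 between the libraries of replicate 1 and 0.37 between those of replicate 2 (SD 0.0041, n = 2). Replicate numbers were not taken as pairs, so this SD holds for same-number libraries only and may understate the spread. Without single control libraries the gap ran from 0.37 to 0.39. After median-of-ratios scaling the class medians were -0.01, -0.08, -0.02, 0.17, 0.32 and 0.06. After quantile normalization, which forces equal distributions on all libraries, they were -0.04, -0.01, 0.02, 0.05, 0.12 and 0.04, and the gap shrank to 0.11. The rise from 1 FPKM to 1000 FPKM kept its direction under both scalings while its size fell by more than 3-fold under the second. In the DDX3X libraries the polysomal minus total medians of the control classes were -0.04, 0.00, 0.09, 0.30, 0.50 and 0.00.

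**Figure D2:**
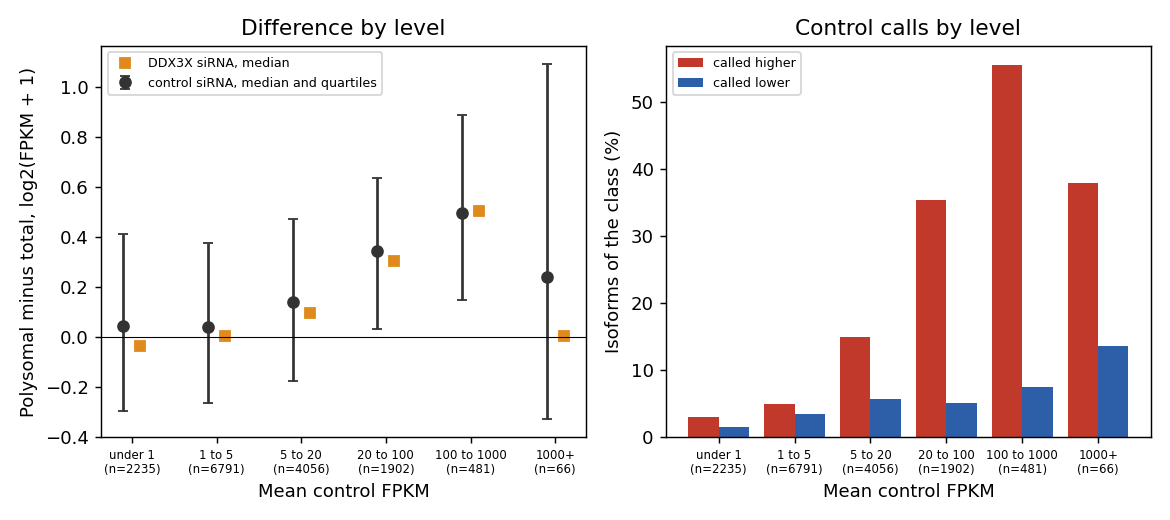
Left, median polysomal minus total difference of log2(FPKM + 1) by class of mean control FPKM, with quartiles as bars for control siRNA (circles) and medians for DDX3X siRNA (squares); right, percent of the isoforms of each class called higher (red) or lower (blue) in polysomal RNA with control siRNA. The control median goes from 0.04 under 1 FPKM to 0.49 at 100 to 1000 FPKM, and the share called higher from 3.04% to 55.5%.

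The most abundant RNAs of the 2 fractions were partly different. In both control total RNA libraries 45 isoforms reached 1000 FPKM, and in both control polysomal libraries 61 did, of which 27 were common to both, 60.0% of the first set and 44.3% of the second. Of the 45 isoforms of total RNA, 10 were called higher, 11 lower and 24 neither, with a median difference of -0.15. Of the 61 of polysomal RNA, 41 were called higher, 2 lower and 18 neither, with a median difference of 0.67. Of these 41, 1 was more than 4-fold higher, and it was listed at 0 in both control total RNA libraries. As each set was chosen by its level in one fraction, its median leans towards that fraction, and no test was made.

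Among the 45 isoforms abundant in total RNA, 4 were called more than 4-fold lower in polysomal RNA. The first of these stood at 469968 and 497435 FPKM in total RNA and was listed at 0 in both control polysomal libraries. In the DDX3X libraries it stood at 240738 and 758709 FPKM in total RNA and was again listed at 0 in polysomal RNA. An exact 0 can be a failed estimate in this kind of table, so no fold is given. Another was at 1542 and 1408 FPKM in total RNA and at 0 in both polysomal libraries. It was at 0 and 227 FPKM in polysomal RNA with DDX3X siRNA, so its absence did not hold in every polysomal library. A further one was at 1933 and 4064 FPKM in total RNA and at 41.8 and 74.2 FPKM in polysomal RNA (log2 difference -5.63 ± 0.39 SE, limma adjusted p = 0.00112). The remaining one, uc001vxa.1, is described next with the isoforms chosen by size of difference.

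The isoforms named here had the 2 largest positive and 2 largest negative differences among called isoforms whose replicates did not overlap, with at least 5 FPKM in the higher fraction and a value above 0 in all 4 control libraries. This rule was met by 1672 higher and 415 lower isoforms (10.8% and 2.67% of those tested). Their levels are shown in the plot of named isoforms by library.

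Isoform uc001vxa.1 was the most strongly depleted of those that met the rule. It stood at 303 and 246 FPKM in the polysomal libraries and at 35368 and 37116 FPKM in the total RNA libraries of control siRNA. Its total RNA mean of 36242 ± 1236 FPKM (SD, n = 2) was 132 times its polysomal mean of 275 ± 40.4 FPKM (SD, n = 2). The fractions were far apart and replicates close together, with a log2 difference of -7.05 ± 0.11 (SE, limma adjusted p = 1.6e-06). With DDX3X siRNA it was at 233 and 246 FPKM in polysomal RNA and at 42360 and 43129 FPKM in total RNA. The difference between siRNAs did not pass (0.43 ± 0.16 SE, limma adjusted p = 0.632). It kept its sign and passed the threshold in all 20 alternative settings.

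Isoform uc031xqz.1 was lower on polysomes but uneven there. It stood at 226 and 347 FPKM in total RNA, and at 7e-28, in effect 0, and 12.7 FPKM in polysomal RNA. The fractions did not overlap, but the 2 polysomal libraries disagreed on whether the isoform was present. Its log2 difference was -6.25 ± 1.33 (SE, limma adjusted p = 0.0236), and 12 of 20 alternative settings kept it past the threshold (range of limma adjusted p 0.00506 to 0.137), with the same sign in all 20. Of single libraries, it did not pass without control polysomal replicate 1 (adjusted p = 0.0813) or control total replicates 1 or 2 (0.0785 and 0.0865, limma). With DDX3X siRNA it showed the same unevenness, at 2.2e-90 and 6.05 FPKM in polysomal RNA against 114 and 213 FPKM in total RNA, and the difference between siRNAs did not pass (limma adjusted p = 0.996).

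Isoform uc003xtq.3 was the more stable of the higher isoforms named. It stood at 38.3 and 63.8 FPKM in polysomal RNA and at 0.0719 and 0.514 FPKM in total RNA of control siRNA. Both total RNA values were below 1 FPKM, so the ratio is poorly determined, and the difference is given on the log2(FPKM + 1) scale only, at 5.31 ± 0.35 (SE, limma adjusted p = 0.000898). Its control difference passed in each of 20 alternative settings. With DDX3X siRNA its polysomal values were similar, at 42.0 and 29.9 FPKM, but total RNA held 15.4 and 25.6 FPKM. The fractions did not overlap there either, at a log2 difference of 0.81 ± 0.35 (SE), which did not pass (limma adjusted p = 0.159). The difference between siRNAs passed, at 4.50 ± 0.49 (SE, limma adjusted p = 0.0468). This call was not stable: it held in 2 of 18 alternative settings (limma adjusted p 0.0359 to 0.187), was lost without any one of the 8 libraries and without isoforms listed at 0 (adjusted p = 0.110), and kept its sign in all 18. The isoform was also chosen for its large control difference. The polysomal values of the siRNAs overlapped, while the total RNA values did not.

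Isoform uc009ywg.1 had the largest positive difference, with a wide spread. It stood at 101 and 234 FPKM in polysomal RNA and at 1.3e-15, in effect 0, and 5.73 FPKM in total RNA. Its log2 difference was 5.90 ± 1.26 (SE, limma adjusted p = 0.0239), and 14 of 20 alternative settings kept it past the threshold (range of limma adjusted p 0.0107 to 0.138). Of single libraries, it did not pass without control polysomal replicate 1 or 2 (limma adjusted p = 0.0784 and 0.127) or control total replicate 1 (0.0957). With DDX3X siRNA it was at 5.77 and 73.4 FPKM in polysomal RNA and in effect at 0 in both total RNA libraries. The difference between siRNAs did not pass (1.41 ± 1.78 SE, limma adjusted p = 0.939).

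**Figure D3:**
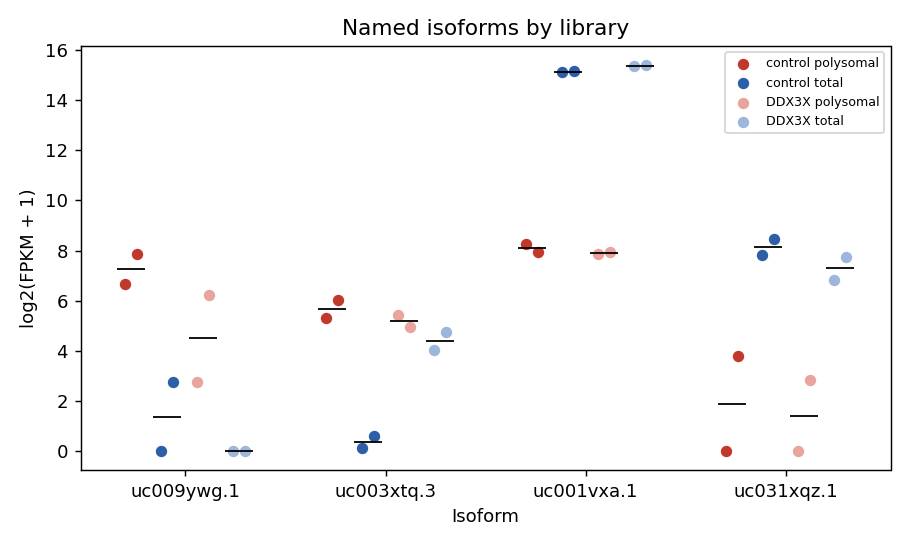
Level of the 4 named isoforms as log2(FPKM + 1) in each of the 8 libraries (points, 2 per group) with group means of the log2 values as black lines. The control polysomal and total points do not overlap for any of the 4, and uc003xtq.3 has total RNA values near 0 with control siRNA that are absent with DDX3X siRNA.

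Values near 0 carried many of the large differences. Of the 50 isoforms called more than 4-fold higher in polysomal RNA, 11 had at least 1 FPKM in all 4 control libraries, and of the 51 called more than 4-fold lower, 17 had. The 50 higher isoforms had a median total RNA level of 0.407 FPKM and a median polysomal level of 6.96 FPKM. The 51 lower isoforms had a median total RNA level of 75.9 FPKM and a median polysomal level of 0.181 FPKM. As the sets were chosen by this difference, a low median in the other fraction is built in. In the fraction where each set was higher, the median was 75.9 FPKM for the lower isoforms and 6.96 FPKM for the higher ones. Values under 0.01 FPKM were more frequent in total RNA, with 763 and 710 tested isoforms, than in polysomal RNA, with 375 and 433. With DDX3X siRNA they numbered 585 and 537 in total RNA and 634 and 318 in polysomal RNA, so the fractions overlapped there. Their part in the large differences was not tested beyond these counts.

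Some isoforms were listed in one fraction only. At least 1 FPKM in both control total RNA libraries together with 0 in both control polysomal libraries was found for 24 isoforms, with total RNA means from 1.89 to 483702 FPKM and a median of 65.7 FPKM. Of these, 10 had a mean of 100 FPKM or more and 20 were called. In the DDX3X libraries 17 of the 24 were again at 0 in both polysomal libraries, 6 of them with at least 1 FPKM in both total RNA libraries and 4 of them at 0 in all 4 libraries. Another 6 of the 24 reached 1 FPKM in at least 1 DDX3X polysomal library. The reverse, at least 1 FPKM in both polysomal libraries and 0 in both total RNA libraries, was found for 5 isoforms with polysomal means of 2.21 to 1029 FPKM, of which 4 were called. None of the 5 had the same pattern in the DDX3X libraries.

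The ratio could be formed for each replicate number. Across all 15531 isoforms, which are not independent replicates, the differences of replicates 1 and 2 had a Pearson correlation of 0.376 and a Spearman correlation of 0.546. These were 0.736 and 0.808 over the 6392 isoforms above 0 in all 4 control libraries and with a control mean of at least 5 FPKM. The sign was the same in both replicates for 72.4% of all isoforms and for 82.7% of the latter. With numbers exchanged between the total RNA libraries the shares were 73.5% and 84.0%. The Pearson and Spearman correlations were then 0.398 and 0.547 over all isoforms, and 0.708 and 0.782 over the 6392. Equal numbers thus gave higher correlations in the second set but not in the first, and lower shares of equal sign in both. The median gap between the replicate ratios was 0.27 over all isoforms and 0.19 at 5 FPKM or more. These medians describe the isoforms as a set, and the gap of a single isoform can be smaller or larger.

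The DDX3X libraries gave a separate measurement of the same ratio, after another siRNA. Of the 1976 isoforms called higher with control siRNA, 1900 (96.2%) were also above 0 with DDX3X siRNA, against 55.1% of all tested isoforms. Of the 646 called lower, 621 (96.1%) were below 0, against 44.8% of all. Called or not, 75.9% of the 9280 tested isoforms above 0 with control siRNA were also above 0 with DDX3X siRNA. Of the 6233 below 0 with control siRNA, 75.7% were also below 0. The calls used the spread over all 8 libraries; with calls made from the 4 control libraries alone the shares were 95.6% of 1745 and 95.2% of 461. The size was also similar. The median difference of the higher isoforms was 0.80 with control and 0.68 with DDX3X siRNA, and that of the lower isoforms was -0.90 and -0.85. Polysomal and total values did not overlap in the DDX3X libraries for 1809 of the higher and 586 of the lower isoforms. With calls from the 4 control libraries alone this held for 1534 of 1745 and 397 of 461. Over all tested isoforms the shares were 34.4% and 25.5% in these directions. In the DDX3X contrast itself 18.9% of isoforms were called.

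The sets with the largest control differences were set beside their DDX3X values in the same way. Of the 50 isoforms called more than 4-fold higher, 43 were above 0 and 5 below 0 with DDX3X siRNA, and their median was 2.25 with control and 1.35 with DDX3X siRNA. Of the 51 called more than 4-fold lower, 46 were below 0, 1 was above 0 and the others were at exactly 0, with medians of -4.22 and -2.76. Isoforms chosen for extreme values in one set of libraries can have less extreme values in another through the choice alone, so this gap is no measure of an effect of DDX3X. The test of the difference between siRNAs passed for 3 of these 50 and 5 of these 51 isoforms. It passed for 4 of all 1976 and 6 of all 646, against 0.116% of tested isoforms. The control difference that chose these sets is part of that test, so these counts are no result about the sets.

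**Figure D4:**
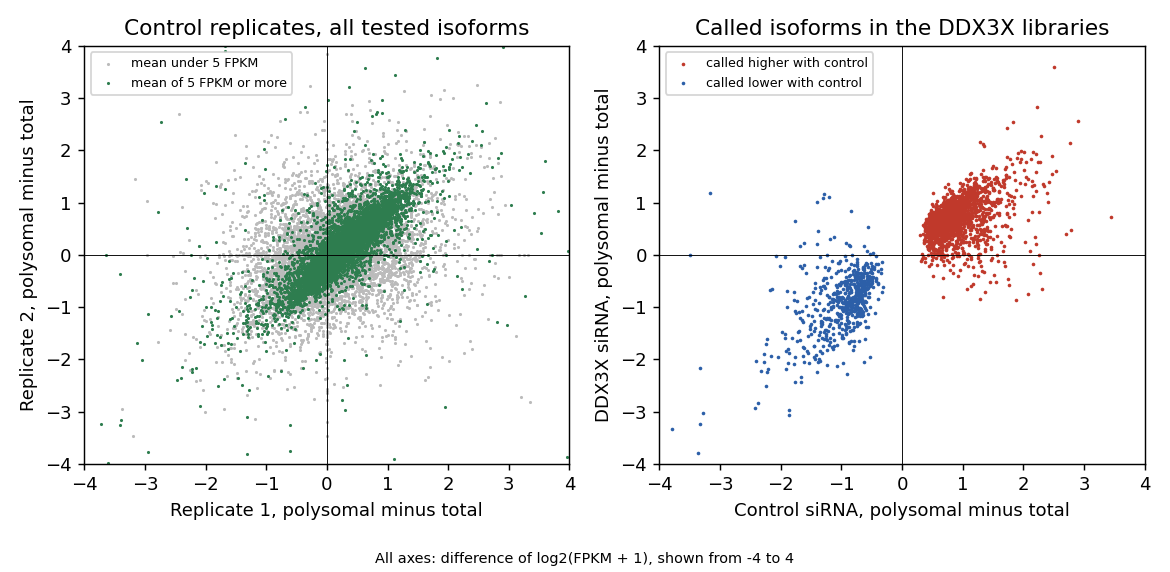
Left, polysomal minus total difference of log2(FPKM + 1) in control replicate 2 (y axis) against replicate 1 (x axis) for all tested isoforms, green at a mean of 5 FPKM or more; right, the same difference with DDX3X siRNA (y axis) against control siRNA (x axis) for isoforms called higher (red) or lower (blue) with control siRNA. Axes run from -4 to 4 and leave out 120 isoforms on the left and 32 on the right; on the right, 1900 of the 1976 isoforms called higher lie above 0.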

How the data were processed

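RNA of HT-144 cells was sequenced as total RNA or as polysomal RNA from a sucrose gradient, with paired 75 bp reads, per the labels' protocols. The authors deposited FPKM values per isoform; per the submitters' processing notes TopHat2, Cufflinks 2.2.1 and hg38 were used, and annotation and settings are not given in the sources used here. Cufflinks divides reads among isoforms by a model, so isoforms of a gene depend on each other. FPKM holds no counts, so depth is unknown and no counting interval is given.

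Of 65535 rows, 14 with text fields and 7 with the same nonzero value in every column were left out, and 5 decimal commas were read as points. Isoforms with 1 FPKM or more in at least 2 of 8 libraries (15531) were fitted as log2(FPKM + 1), without scaling, in a 4-group limma 3.58.1 model (R 4.3.3, intensity trend), with two-sided tests and Benjamini-Hochberg adjustment over all tested isoforms at 0.05. "Called" means below this threshold. All groups were fitted together so that they share 1 estimate of the spread. The model was run on simulated data with independent normal noise. Changes were added there only to isoforms without a 0, so the run says nothing on changes of isoforms listed at 0. Tables and plots used Python 3.11.15, pandas 2.3.3 and matplotlib 3.10.9. Groups and replicate numbers came from sample titles; another label gives both libraries of a group the same replicate number.

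The named isoforms were the 2 with the largest difference in each direction under the rule given with them; 17 fixed gene lists could not be matched to identifiers. Members, lists and rules were chosen with earlier results of these data known. Alternatives covered the pseudocount, filter, scaling, variance model, libraries in the fit, replicate block and leaving out each library. No sequences were matched to the isoforms.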

Additional observations from a re-analysis of the deposited data

Results flagged for a closer look

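In the test of one siRNA's ratio against the other's, 18 isoforms had a polysomal to total ratio that differed between control and DDX3X siRNA (limma adjusted p under 0.05). The control ratio was the higher of the 2 for 13 and the lower for 5. A value of 0 in some library was present for 14 of them, and the other 4 differed by 1.24 to 4.50 on the log2 scale. Among the 18, 4 were called higher and 6 lower in polysomal RNA with control siRNA, a difference that this test itself contains. Without isoforms listed at 0 the limma fit called 0.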

How the results depend on the processing

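No named isoform changed sign in any of 20 alternative settings, and 66 of the 80 resulting fits passed. The control counts of 1976 higher and 646 lower isoforms stayed within 1.5 times of these values under both other pseudocounts, the 5 FPKM filter, both other variance models, the control libraries alone and without isoforms listed at 0. With no filter 1286 were higher and 382 lower, the median was 0, 21 isoforms of 100 FPKM or more were lower, 32 and 31 were called over 4-fold higher and lower, the gap of abundant isoforms to all was 0.48, 88.1% and 77.7% kept their direction with DDX3X siRNA, the DDX3X contrast gave 1182 and 603 and the difference of ratios 219. Quantile normalization gave 1339 lower isoforms, a median of 0.0081, 153 higher and 82 lower isoforms of 100 FPKM or more, a gap of 0.11, 96.5% of lower isoforms in the same direction and 1575 lower isoforms with DDX3X siRNA. Median-of-ratios scaling gave 1476 lower, a median of -0.0063, a gap of 0.32 and 1718 lower with DDX3X siRNA. The 5 FPKM filter gave a median of 0.23, a gap of 0.26, 3 isoforms listed at 0 in total RNA only and 97.1% of lower isoforms in the same direction. Without isoforms listed at 0, by construction 0 and 0 were listed in one fraction only; 30 were over 4-fold lower, the gap was 0.38 and the difference of ratios called 0. A pseudocount of 0.1 gave 174 and 96 isoforms over 4-fold, a gap of 0.32 and 96.8% of lower isoforms in the same direction, and a pseudocount of 5 gave 9 over 4-fold higher and a gap of 0.42. The share of lower isoforms in the same direction was 95.4% with no intensity trend and 95.2% with the control libraries alone. In 2 alternatives added after the data were seen, level classes from DDX3X libraries gave a gap of 0.38, and 1 FPKM in all 4 control libraries left 11 and 17 isoforms over 4-fold. Except where stated, the cause was not tested.

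The labels do not say that replicate numbers mark a shared culture, and the deviations of same-numbered libraries correlated at -0.08 to 0.08 across isoforms, so the numbers were not taken as pairs. With the replicate block over 8 libraries 1684 isoforms were higher and 487 lower. With the replicate block in the 4 control libraries, which leaves 1 residual degree of freedom, 6 were higher and 23 lower (4536 at an unadjusted p under 0.05), all 29 over 4-fold (6 and 23), with 2 and 13 of 100 FPKM or more and 66.7% and 87.0% in the same direction with DDX3X siRNA.

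Leaving out single libraries, with a lone library assumed to vary like the other groups, gave 738 to 2331 higher and 182 to 778 lower isoforms, 178 to 326 and 24 to 50 of 100 FPKM or more, 40 to 77 over 4-fold higher, 13 to 20 listed at 0 in total RNA only without a control library and 5 otherwise, a gap of 0.36 to 0.39, 90.0% to 98.1% and 92.9% to 98.0% in the same direction, 797 to 1789 and 290 to 1196 calls with DDX3X siRNA and 9 to 24 for the difference of ratios. Depth is unknown, and isoforms below 5 FPKM had the widest replicate gaps.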
